A study of Mus musculus with 6 samples.

Results

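The Obox (oocyte specific homeobox) genes Obox1, Obox2, Obox3, Obox5 and Obox6 were taken by symbol from the gene tables of 6 mouse oocyte libraries. All 5 were among the 17577 listed genes, and 4 of them had a mean of at least 1 FPKM (mapped fragments, scaled to transcript length and library size) over the 6 libraries. The other gene listed under an Obox symbol, Obox7, is given beside them as a further copy. The oocytes were germinal vesicle oocytes, fully grown and arrested before meiotic maturation, of 12-week-old C57BL/6 J mice. According to the study's methods, females were injected with pregnant mare serum gonadotropin before oocyte collection, and a single oocyte was the input of each cDNA. Bnc1 encodes basonuclin 1, a zinc finger protein of germ cells and keratinocytes. The 3 Bnc1tr/tr libraries came from mice homozygous for a small frameshift deletion that truncates this protein, and the 3 wild-type (WT) libraries carry the intact gene. The allele is in the germline, so the surrounding ovarian cells of the Bnc1tr/tr mice carried it as well. Whether the libraries of a group came from separate mice is not given in the labels, and p-values measure only the spread between these samples. The study describes 3 biological replicates in each group, run in duplicate, and comparisons of littermates.

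Homeobox genes encode transcription factors that bind DNA through a homeodomain. The Obox family is expanded in rodents, lies as a cluster of near-identical copies and is expressed in oocytes and early embryos. Obox1, Obox2, Obox5 and Obox7 transcripts are known as part of the maternal store that an oocyte passes to the embryo, whereas Obox3 is known mainly as a gene switched on in the cleaving embryo. Loss of the family's maternal and zygotic supply impairs zygotic genome activation, the first wave of transcription of the embryo. Obox6 is the most diverged of these genes and has been linked to reprogramming of somatic cells to pluripotency.

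All 6 genes lie on chromosome 7 of GRCm38.p6 in the RefSeq annotation. Obox7 spans chr7:14659708-14665996, Obox2 chr7:15388851-15398545 and Obox1 chr7:15547257-15556846. Obox3 spans chr7:15625306-15639777, Obox5 chr7:15750370-15759274 and Obox6 chr7:15833250-15839679. The likeness of the copies limits how far their reads can be told apart, so a stretch of 90 coding bases is shown for each gene, read from GENCODE M21 transcripts. It is the ungapped stretch most alike in all 6 genes, running from coding base 103 to 192, or from 130 to 219 in Obox6. Capitals mark bases that differ from Obox1.
Obox1: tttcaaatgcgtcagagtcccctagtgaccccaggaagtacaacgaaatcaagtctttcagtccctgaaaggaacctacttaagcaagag
Obox2: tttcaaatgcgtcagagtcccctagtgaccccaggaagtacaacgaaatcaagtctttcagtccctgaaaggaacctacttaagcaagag
Obox5: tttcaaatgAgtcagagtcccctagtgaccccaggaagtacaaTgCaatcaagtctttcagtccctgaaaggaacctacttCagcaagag
Obox7: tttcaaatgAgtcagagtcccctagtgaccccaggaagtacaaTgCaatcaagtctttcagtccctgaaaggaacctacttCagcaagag
Obox3: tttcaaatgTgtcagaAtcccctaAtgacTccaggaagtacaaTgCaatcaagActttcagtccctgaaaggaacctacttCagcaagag
Obox6: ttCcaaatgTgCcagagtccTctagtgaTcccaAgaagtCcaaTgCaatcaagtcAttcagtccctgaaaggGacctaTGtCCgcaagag
Obox2 had 0 differences from Obox1 in these bases. Obox5 and Obox7 had 4 each, in the same sequence, Obox3 had 8 and Obox6 had 15. Over all aligned coding bases, Obox1 and Obox2 were 98.5% identical and Obox1 and Obox5 95.4% identical. Obox3 was 94.0% identical to Obox1 and 94.1% identical to Obox5, and Obox6 was 75.7% to 80.4% identical to the other 5 genes. The coding sequence had 456 bases in Obox2, 615 in Obox1, 876 in Obox5, 1008 in Obox3 and 1044 in Obox6.

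The likeness extends to the promoters, which are shown because the copies differed in level and in their difference between genotypes although their upstream sequence is shared. RefSeq windows of 250 bases before and 50 after the annotated start were held for Obox1, Obox2, Obox3, Obox5 and Obox7. The bases from 150 before to 2 after the start are given for Obox1 (chr7:15547107-15547258, + strand), Obox5 (chr7:15750220-15750371, + strand), Obox7 (chr7:14659558-14659709, + strand) and Obox3 (chr7:15639776-15639927, - strand). Capitals mark a run of 25 bases found without a mismatch in all 5 windows, and the letters TATATAA, which resemble a TATA box.
Obox1: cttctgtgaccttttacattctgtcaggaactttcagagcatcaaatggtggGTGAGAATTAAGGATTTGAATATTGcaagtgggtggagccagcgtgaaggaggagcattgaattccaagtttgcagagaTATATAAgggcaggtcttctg
Obox5: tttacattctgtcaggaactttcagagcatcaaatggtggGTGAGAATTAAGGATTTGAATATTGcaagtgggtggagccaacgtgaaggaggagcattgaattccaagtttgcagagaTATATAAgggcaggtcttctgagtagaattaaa
Obox7: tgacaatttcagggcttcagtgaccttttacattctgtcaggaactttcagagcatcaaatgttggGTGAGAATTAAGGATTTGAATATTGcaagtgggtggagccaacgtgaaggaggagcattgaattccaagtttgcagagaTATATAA
Obox3: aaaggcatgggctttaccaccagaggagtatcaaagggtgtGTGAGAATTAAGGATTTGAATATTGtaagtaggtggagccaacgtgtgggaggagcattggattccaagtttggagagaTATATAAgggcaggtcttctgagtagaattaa
On either strand, TATATAA was found in 3.24% of all 32851 mouse promoter windows of this length. It began at position -19 in Obox1, -31 in Obox5, -30 in Obox3 and -5 in Obox7, counted from the annotated start. The Obox2 window lacked these letters, and its annotated start lies upstream of that of Obox1 in the aligned sequence, with a run of 203 identical bases between both windows. The Obox1 window was 96.5% identical to that of Obox5 over 283 aligned bases and 93.3% identical to that of Obox3 over 164. GGATTA, letters read by homeodomains of the Otx type, were present in 7.06% of all windows and among these genes in the Obox3 window at position -168. TAATTA and TAATTG, which oocyte homeodomains such as that of NOBOX can bind, were present in 5.29% and 8.0% of all windows and in none of the 5. The E-box letters CANNTG, present in 72.3% of all windows, were found in the windows of Obox1, Obox2, Obox5 and Obox7 and were absent from that of Obox3. These motifs can overlap each other, and a match is a description of letters.

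The libraries had FPKM totals of 657550 to 724550. Depth, as estimated from the spacing of low values, was 13.4 to 17.3 M (mega) fragments in Bnc1tr/tr and 15.0 to 21.9 M in WT, the deepest being WT replicate 3. Genes above 0 numbered 15258 to 15736 in Bnc1tr/tr and 13896 to 14576 in WT. All 15 oocyte markers were detected in every library, from 10.8 to 10706 FPKM. Bnc1 itself was at 9.04, 6.51 and 5.83 FPKM in Bnc1tr/tr replicates 1 to 3 and at 13.2, 12.5 and 16.2 FPKM in WT replicates 1 to 3. It fell by 0.89 on the log2(FPKM + 1) scale (limma, adjusted p = 0.0090), and these gene values do not show the deletion itself.

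Obox transcripts were among the most abundant of the oocyte, and their order was the same in 6 of 6 libraries. Obox2 was highest, followed by Obox1, Obox5, Obox7, Obox3 and Obox6. Ranked by FPKM within each library, Obox2 stood between places 9 and 14, Obox1 between 22 and 41 and Obox5 between 36 and 53. Obox7 ranked between 228 and 468, Obox3 between 3852 and 9123 and Obox6 between 9658 and 15628. Together the 5 members made up 0.960% to 1.503% of the FPKM total of a library. Obox2 supplied 50.2% to 55.3% of the members' FPKM, Obox1 25.2% to 27.8% and Obox5 19.5% to 22.5%. Obox3 supplied 0.0190% to 0.221% and Obox6 at most 0.0132%. The family therefore had 3 members at 1286 FPKM or more in every library, and 2 that did not exceed 19.6 FPKM.

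**Figure D1:**
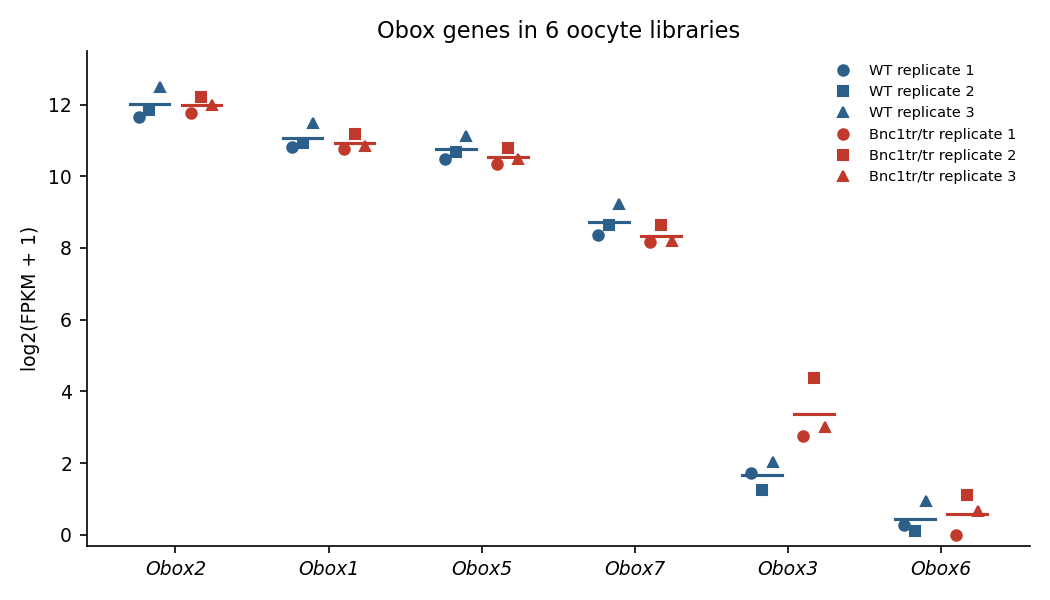
Levels of the 5 Obox members and Obox7 on the log2(FPKM + 1) scale, with 1 point per library, symbols for replicates 1 to 3, blue for WT, red for Bnc1tr/tr and a line at each group's mean. Obox2, Obox1 and Obox5 lie above Obox7 in each library and overlap between genotypes, whereas the 3 Bnc1tr/tr points of Obox3 lie above its 3 WT points.

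How much sequence the transcripts share was measured as the share of a transcript's 31-base words that also occur in a transcript of another gene. It was 79.4% for Obox2 and 74.2% for Obox1, mostly because 68.6% of Obox1's words occur in Obox2 and 71.2% of Obox2's words occur in Obox1. It was 33.9% for Obox5 and 43.6% for Obox7. The levels of Obox1 and Obox2 are therefore uncertain as separate values, since whether and how fragments matching several copies were divided is not given in the sources used here. Obox3 shared 55.9% of its words with other genes, but with other partners. Words in Obox pseudogenes made up 49.97% of its transcript, led by Obox3-ps3 with 40.2%, and words in the 4 abundant copies Obox1, Obox2, Obox5 and Obox7 made up 12.5%. Obox6 shared 14.6% with other genes and 1.07% with other coding Obox genes. RefSeq annotates 47 Obox pseudogenes, of which 45 lie on chromosome 7, and 0 of them are listed in the FPKM tables. Fragments of these pseudogenes and of Obox3 cannot be told apart where they share words.

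**Figure D2:**
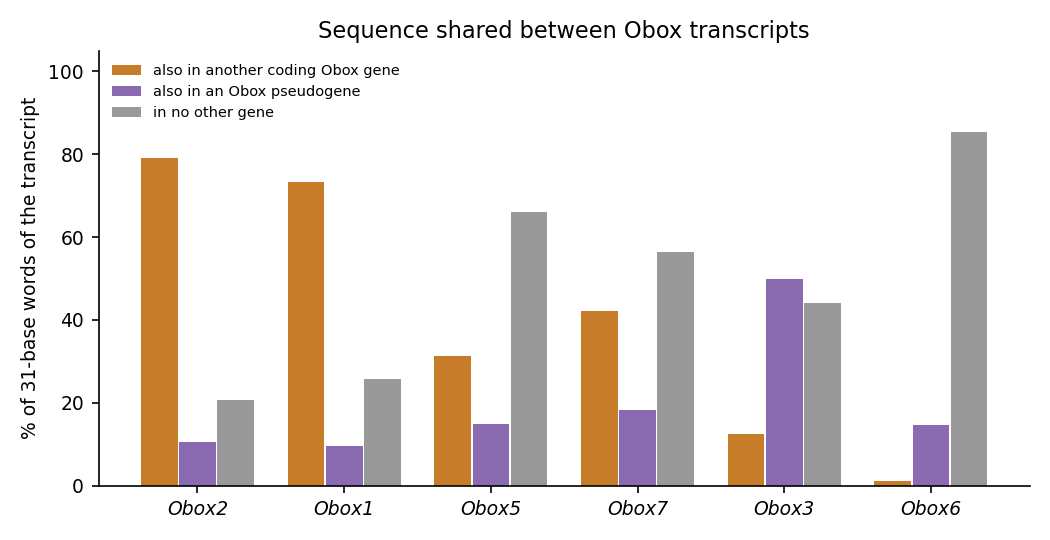
Share of the 31-base words of each Obox transcript, in percent, that also occur in another coding Obox gene (orange), in an Obox pseudogene (purple) or in no other gene (grey), where a word can count in both of the first 2 classes. Obox1 and Obox2 share most words with coding copies, Obox3 shares most with pseudogenes (49.97%), and Obox6 is the most distinct.

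The comparison of genotypes asked whether the maternal Obox transcripts of the oocyte differed with the Bnc1 truncation. Of the 4 members tested, 1 rose in Bnc1tr/tr (Obox3), 0 fell and 3 did not pass the test (limma on log2(FPKM + 1), adjusted p under 0.05 and a log2 fold change beyond 0.5). In the same fit, 31.8% of all 10560 genes tested passed, 24.1% higher and 7.68% lower in Bnc1tr/tr. Higher genes made up 75.8% of these calls, against 50.8% with upper-quartile scaling, 56.0% with median-ratio scaling and 46.6% with quantile normalization. The median log2 fold change of the 4 members was -0.08, against 0.15 for all genes tested. With upper-quartile scaling these medians were -0.36 and -0.09, with median-ratio scaling -0.30 and -0.05, and with quantile normalization 0.01 and -0.10. The members' median was also positive without WT replicate 3 (0.15) and without Bnc1tr/tr replicate 1 (0.02), so it has no fixed sign.

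Obox2, the most abundant member, was at 3453, 4740 and 4061 FPKM in Bnc1tr/tr replicates 1 to 3 and at 3235, 3693 and 5773 FPKM in WT replicates 1 to 3. The groups overlapped, with means of 4085 ± 644 (SD, n = 3) and 4234 ± 1352 (SD, n = 3). The log2 fold change was -0.02 (SE 0.24, 95% interval -0.57 to 0.53, limma adjusted p = 0.96). Its sign was positive without WT replicate 3 (0.23), without Bnc1tr/tr replicate 1 (0.10) and with quantile normalization (0.12), so no direction can be given.

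Obox1, the near-identical neighbour of Obox2, was at 1721, 2336 and 1849 FPKM in Bnc1tr/tr and at 1792, 1940 and 2881 FPKM in WT replicates 1 to 3. The groups again overlapped, and the lowest of the 6 values was that of a Bnc1tr/tr library and the highest that of a WT library. The means were 1969 ± 324 (SD, n = 3) and 2204 ± 591 (SD, n = 3), with a log2 fold change of -0.14 (SE 0.22, 95% interval -0.65 to 0.36, limma adjusted p = 0.67). Without WT replicate 3 it was 0.07.

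Obox5, a longer member of the maternal group, was at 1286, 1771 and 1429 FPKM in Bnc1tr/tr and at 1417, 1632 and 2235 FPKM in WT replicates 1 to 3. Its means were 1496 ± 249 (SD, n = 3) and 1761 ± 424 (SD, n = 3) with overlapping groups. The log2 fold change was -0.22 (SE 0.22, 95% interval -0.71 to 0.27, limma adjusted p = 0.48). The further copy Obox7 was at 287, 396 and 294 FPKM in Bnc1tr/tr and at 327, 395 and 594 FPKM in WT, with a log2 fold change of -0.40 (SE 0.25, limma adjusted p = 0.25). For these 4 abundant copies, the intervals leave room for differences of either sign, and the adjusted p of limma stayed above 0.05 under all 14 alternatives.

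The spread within groups was shared by the abundant copies. In WT replicate 3, Obox1 was 1.54 times, Obox2 1.67 times, Obox5 1.47 times and Obox7 1.65 times the mean of WT replicates 1 and 2. In Bnc1tr/tr replicate 2, the factors against the mean of replicates 1 and 3 were 1.31, 1.26, 1.30 and 1.36. Between the highest and the lowest of the 6 libraries, Obox1, Obox2 and Obox5 differed 1.67, 1.78 and 1.74 times, against 14.2 times for Obox3. The sum of the 5 members, which depends less on how fragments were divided among copies, was 6466, 8868 and 7347 FPKM in Bnc1tr/tr and 6446, 7267 and 10893 FPKM in WT. The groups overlapped in this sum, which was not tested.

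Obox3 was the member that differed between genotypes. It was at 5.76, 19.6 and 7.12 FPKM in Bnc1tr/tr replicates 1 to 3 and at 2.32, 1.38 and 3.06 FPKM in WT replicates 1 to 3. Each Bnc1tr/tr library lay above each WT library, which was so for 32.7% of all genes tested, and Bnc1tr/tr replicate 2 stood above the other 5. The means were 10.8 ± 7.61 (SD, n = 3) and 2.25 ± 0.842 (SD, n = 3) FPKM, a ratio of 4.80. The log2 fold change was 1.71 (SE 0.39, 95% interval 0.82 to 2.61, limma adjusted p = 0.010), or 1.57 above the median of all genes. Without Bnc1tr/tr replicate 2 the ratio of means was 2.86 and the log2 fold change 1.22 (limma adjusted p = 0.015). It passed under all 14 alternatives, with log2 fold changes from 1.22 to 2.07 and adjusted p from 0.0091 to 0.049, the last without a filter on low values.

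Even in Bnc1tr/tr oocytes, Obox3 stayed far below the maternal copies. Among the 5277 genes with a mean of 1 to 10 FPKM, to which it belongs, 30.1% were called higher in Bnc1tr/tr, and their median log2 fold change was 0.28. The estimated depth puts 106, 457 and 170 fragments on Obox3 in Bnc1tr/tr replicates 1 to 3 and 48.0, 31.2 and 92.1 in WT, for a transcript of 1603 bases. Fragments were amplified without molecular identifiers, so such numbers cover counting error only. Within each group, the library with the most Obox3 also had the highest sum of Obox1, Obox2 and Obox5. These sums were 6461, 8847 and 7339 FPKM in Bnc1tr/tr replicates 1 to 3, in the same order as Obox3, and 6444, 7265 and 10889 FPKM in WT replicates 1 to 3. Between groups the sums overlapped, whereas Obox3 did not. The part of fragments from the abundant copies or from pseudogenes in the Obox3 value was not tested.

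In FPKM as deposited, the summed levels of 3 lists of markers of other cells were higher in Bnc1tr/tr without overlap. Single markers went both ways. The factors of upper-quartile scaling were 1.06 to 1.15 in Bnc1tr/tr and 0.839 to 0.963 in WT. Divided by them, the granulosa and cumulus sums overlap between the groups, as do the theca, stroma and vessel sums. Median-ratio scaling does the same, and the immune sums stay apart under both. Of all single genes tested, 32.7% lay higher in Bnc1tr/tr without overlap and 24.1% were called higher. These shares are no reference for sums over lists. Among tested markers, 2 of 5 granulosa and cumulus, 2 of 3 theca, stroma and vessel and 1 of 4 immune markers were called higher. The summed FPKM of 10 immune and blood cell markers was 24.9, 69.3 and 7.44 in Bnc1tr/tr replicates 1 to 3 and 1.58 to 3.23 in WT. Lyz2, a lysozyme of myeloid cells, was at 5.81, 47.97 and 0 FPKM in Bnc1tr/tr and listed at 0 in each WT library. Its highest value fell in the library with the most Obox3, while Bnc1tr/tr replicate 3 had Obox3 at 7.12 FPKM with Lyz2 listed at 0. Of 16 granulosa and cumulus cell markers, 13 were listed, with sums of 43.9 to 61.0 FPKM in Bnc1tr/tr and 22.9 to 41.2 in WT. Most of these sums was Cyp19a1, the aromatase, which overlapped between the groups and was not called. Foxl2, Wt1, Amhr2 and Lhcgr were listed at 0 in all Bnc1tr/tr libraries and at no more than 0.21 FPKM in WT. Fshr, the receptor of follicle-stimulating hormone, was called higher (5.25 against 0.350 FPKM on average), as was Kitl (2.46 against 1.14). Fshr passed the filter on low values only through the Bnc1tr/tr libraries, which favours a call. Inha had means of 0.693 and 3.42 FPKM, Gja1 of 0.503 and 1.32 and Hsd17b1 of 0.197 and 0.787 in Bnc1tr/tr and WT, with overlapping groups. The sums of theca, stroma and vessel markers, 9 of 11 listed, were 14.6 to 19.7 and 10.4 to 13.8 FPKM. Among them, Cyp11a1 and Dcn were called higher, and the vessel marker Pecam1 was called lower (4.01 against 9.11 FPKM on average). The part of these markers in the Obox3 result was not tested.

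Obox6 was the lowest member, and its values spread widely in both groups. It was listed at 0, 1.17 and 0.59 FPKM in Bnc1tr/tr replicates 1 to 3 and at 0.22, 0.07 and 0.91 FPKM in WT replicates 1 to 3. The groups overlapped. The estimated depth puts 22.2 fragments on Obox6 in Bnc1tr/tr replicate 2 and in WT replicate 3, 11.4 in Bnc1tr/tr replicate 3, and 3.70 and 1.29 in WT replicates 1 and 2. In Bnc1tr/tr replicate 1, 3 fragments on its 1344 bases would have equalled 0.200 FPKM, and a value of 0 allows a level up to that. The means were 0.587 ± 0.585 (SD, n = 3) and 0.400 ± 0.448 (SD, n = 3) FPKM, under the minimum for the test. In the fit without a filter the log2 fold change was 0.16 (SE 0.35, limma adjusted p = 0.81), a difference smaller than the spread between replicates.

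Ratios between members within a library remove the part of the spread that all copies share. Obox2 was 2.08 ± 0.104 (SD, n = 3) times Obox1 in Bnc1tr/tr and 1.90 ± 0.0990 times in WT. The Obox1 to Obox5 ratio was 1.32 ± 0.0227 and 1.25 ± 0.0523, and Obox1 exceeded Obox5 in each library although their ranges over libraries overlapped. The Obox2 to Obox5 ratio was 2.73 ± 0.0928 and 2.38 ± 0.179. On the log2 scale the genotypes differed by 0.13, 0.08 and 0.20 in these 3 ratios. Differences in response involving Obox3 were larger. Relative to Obox1, Obox2 and Obox5, Obox3 was higher in Bnc1tr/tr by 1.86, 1.73 and 1.93 on the log2 scale.

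Groups did not overlap in any of the 6 ratios between tested members, but some nearly touched. For Obox2 over Obox1 the lowest Bnc1tr/tr value was 2.006 and the highest WT value 2.003. For Obox1 over Obox5 these were 1.293 and 1.289. Groups did not overlap for 46.8% of genes tested, but that share is over single genes and is no reference for ratios within a library. The 6 ratios come from 4 genes and are not independent, and 3 of them contain the Obox3 difference given above. A two-sided exact permutation test gave p = 0.10 for each ratio, which is the lowest value possible with 3 libraries a group, and 0.10 after Benjamini-Hochberg adjustment over the 6 pairs, so this test could not pass 0.05. Since Obox1 and Obox2 share most of their sequence, a shift in how fragments were divided would move their ratio, and its part was not tested. Outside the tested pairs, Obox2 was 12.6 ± 1.06 times Obox7 in Bnc1tr/tr and 9.65 ± 0.284 times in WT.

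**Figure D3:**
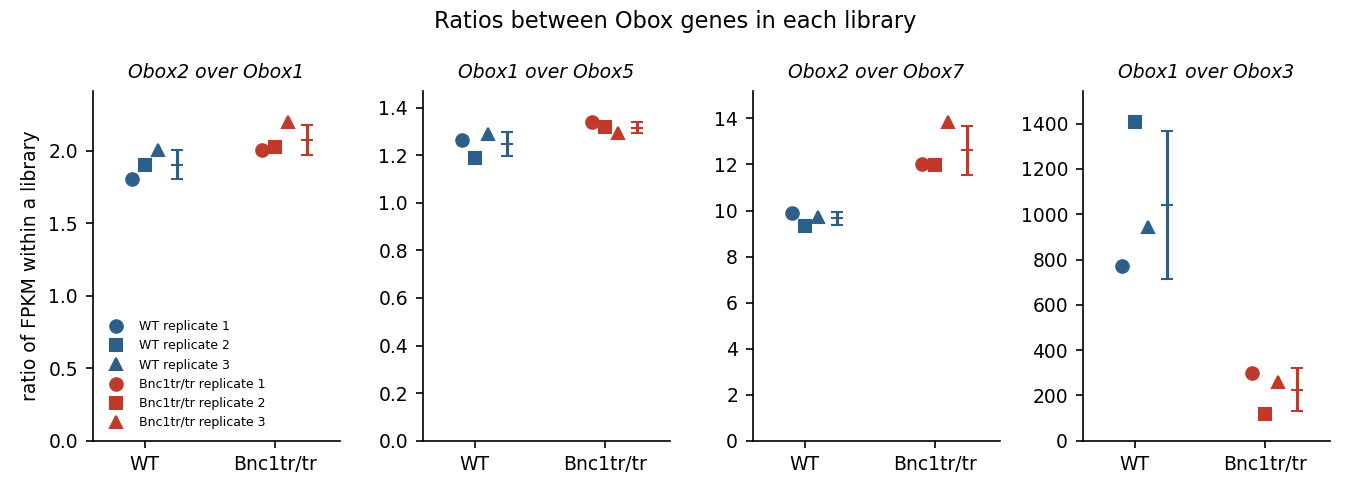
Ratio of FPKM between pairs of Obox genes within each library, with a point per library (blue WT, red Bnc1tr/tr, symbols for replicates 1 to 3) and the mean with its SD beside them, on linear axes from 0. Obox2 over Obox1, Obox1 over Obox5 and Obox2 over Obox7 are somewhat higher in Bnc1tr/tr, and Obox1 over Obox3 is 226 on average in Bnc1tr/tr against 1040 in WT.

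**Figure D4:**
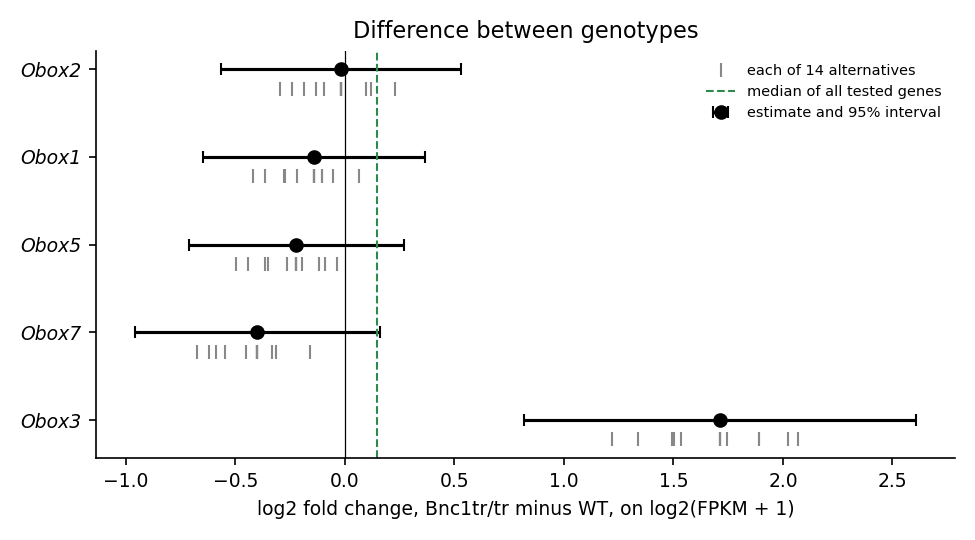
Log2 fold change of the 4 tested members and Obox7, Bnc1tr/tr minus WT on the log2(FPKM + 1) scale, with the 95% interval of limma as a bar, the 14 alternatives as grey ticks, zero as a solid line and the median of all tested genes (0.15) as a dashed line. The intervals of Obox1, Obox2, Obox5 and Obox7 include zero, and that of Obox3 runs from 0.82 to 2.61.

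The genes with the pattern most like each member were found by Euclidean distance of log2(FPKM + 1) over the 6 libraries, which weighs level and differences together. For Obox1 they were Fbxw21 (distance 0.45), H3f3b (0.45) and Sod1 (0.50), and for Obox2 they were Fbxw14 (0.44), Fbxw28 (0.49) and Gm813 (0.55). Fbxw14, Fbxw21 and Fbxw28 belong to a family of F-box proteins expressed in oocytes, H3f3b encodes histone H3.3 and Sod1 a superoxide dismutase. The nearest to Obox5 were Ube2t (0.39), a ubiquitin-conjugating enzyme, Pcgf1 (0.41), a Polycomb protein, and Tmsb10 (0.42), a thymosin. None of these 9 genes was called changed, an outcome that their choice by likeness to uncalled members favours. Obox3 had more distant neighbours, Kcnh5 (0.81), a potassium channel, Cpn1 (1.02), a carboxypeptidase subunit, and Dcaf6 (1.06), a substrate receptor of a ubiquitin ligase. Kcnh5 was at 6.39, 13.9 and 8.23 FPKM in Bnc1tr/tr replicates 1 to 3 and at 2.07, 2.51 and 2.44 FPKM in WT, so that Bnc1tr/tr replicate 2 was highest for this gene as for Obox3. All 3 were called higher in Bnc1tr/tr, a direction that the choice by likeness to Obox3 sets.

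Homeobox genes of oocytes and early embryos outside the family gave a backdrop for the members. Of 20 tested, 6 rose and 2 fell (5 and 2 with upper-quartile scaling, 4 and 3 with quantile normalization), with a median log2 fold change of 0.40 against 0.15 for all genes. The 8 called make up 40.0% of the list, beside 31.8% of all genes. Hopx, a homeodomain-only protein, rose by 3.58, from at most 0.20 FPKM in WT to 10.97 to 15.6 FPKM in Bnc1tr/tr. Lhx2 rose by 2.48, Tgif1 by 1.61, Cux1 by 1.25 and Pou2f1 by 0.84, and Zhx1 fell by 1.12 (limma adjusted p at most 0.010). Nanog was called higher as well (0.79, limma adjusted p = 0.048) but kept its call in 2 of 13 alternatives. Hopx and Nanog passed the filter only through the Bnc1tr/tr libraries and Zhx1 only through WT, which favours a call. Nobox, a master regulator of oocyte genes, had a log2 fold change of 0.11 (limma adjusted p = 0.82) and Sebox, another oocyte homeobox gene, -0.12 (limma adjusted p = 0.73). Lhx8, of the same list, fell from 76.7 to 46.9 FPKM on average (-0.68, limma adjusted p = 0.030) and kept its call in 9 of 14 alternatives. The Cphx genes, also multi-copy homeobox genes of the oocyte, varied strongly within groups. Cphx1 was at 0.91, 96.05 and 8.51 FPKM in WT replicates 1 to 3 and at 83.8 to 122 FPKM in Bnc1tr/tr, and did not pass (limma adjusted p = 0.068).

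Maternal factors linked to zygotic genome activation, the process in which the Obox proteins act, moved in both directions. Of 36 tested, 6 rose and 3 fell, against 3 and 5 with upper-quartile scaling and 3 and 4 with median-ratio scaling, so the balance depends on the scaling. The 9 called make up 25% of the list, beside 31.8% of all genes. Kdm5b, a histone H3 demethylase, rose by 1.63, Klf4 by 1.26 and the NF-Y subunits Nfya and Nfyc by 1.14 and 0.92, while Pabpn1l fell by 2.35 and Dppa4 by 1.32 (limma adjusted p at most 0.034). Nfyc kept its call in 5 of 14 alternatives, against 14 of 14 for Nfya. Among abundant factors, Zar1l fell from 768 to 437 FPKM on average and Dppa2 rose from 146 to 240. Dppa3 (-0.31), Btg4 (0.42), Npm2 (0.04) and Zfp57 (0.21), also abundant, did not pass.

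Obox3 also had company among transcripts of early zygotic genome activation at low level. Of 19 such genes tested, 10 rose and 3 fell (8 and 4 with upper-quartile scaling), with a median log2 fold change of 1.004 against 0.15 for all genes. The 13 called make up 68.4% of the list, beside 31.8% of all genes. The list's median was 0.58 without Bnc1tr/tr replicate 2, 0.47 with quantile normalization, 0.60 without a filter on low values, 0.29 at a minimum mean of 5 FPKM and 1.55 with a pseudocount of 0.1. Usp17lb, a deubiquitinase gene of a multi-copy family, was at 16.8 to 24.1 FPKM in Bnc1tr/tr and at most 0.34 FPKM in WT. Usp17lc (2.80), Usp17le (2.73), Gm4027 (2.31), Gm2022 (1.98) and the HMG-box factor Sox15 (1.53) rose as well on the log2 scale (limma adjusted p at most 0.0071). The genes that fell were Sp110, Pramef6 and Zfp352, by 0.87, 0.84 and 0.58. Sp110 kept its call in 8 of 14 alternatives and Zfp352 in 8 of 13, and 1 gene in place of 3 was called lower when any library other than WT replicate 3 was left out. Arg2 (-0.32), Tcstv1 (-0.00061), Tcstv3 (0.17) and Zscan4c (0.42) did not pass. The Usp17l, Tcstv and Zscan4 genes are multi-copy families too, and their separate values carry the same uncertainty as those of the Obox copies.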

How the data were processed

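RNA of single germinal vesicle oocytes was made into cDNA by a version of Smart-seq2, which primes at poly(A) tails, switches template and amplifies by PCR, and libraries were made with a transposase kit. The authors deposited 1 table per library in FPKM with 2 decimals and no read counts. The submitters' processing notes name HISAT2 2.0.4, Bowtie2 2.2.5, RSEM 1.2.12 and GRCm38.p6, without saying which step each served. The handling of fragments that match several copies is not given in the sources used here. Because FPKM values are relative within a library, a difference in total RNA per oocyte is not seen.

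The fit across all genes used limma 3.58.1 (R 4.3.3) and log2(FPKM + 1), after removal of genes whose mean was under 1 FPKM. This scale understates changes of low genes. Calls needed a Benjamini-Hochberg adjusted p under 0.05 over all 10560 genes and an absolute log2 fold change over 0.5. Ratios between members were tested by two-sided exact permutation over samples. Depth was estimated from the spacing of low FPKM values of genes with known transcript length, as an approximation that entered no test. Shared words were counted in GENCODE M21 transcripts, matched to RefSeq for the Obox genes. Scripts were tested on simulated data.

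The members and gene lists were chosen with earlier results of these data known. Named genes were the members, Obox7, Bnc1, at most 6 called genes of each list with the largest changes, at most 4 abundant genes of each list that did not pass, and the 3 nearest genes of each tested member. Lyz2, Cyp19a1, Inha, Gja1, Hsd17b1, the markers at 0, Zar1l, Dppa2 and the 3 zygotic transcripts that fell were named after their values were seen. So was Lhx8. Alternatives were another pseudocount, other filters, scalings and variance models, the replicate number as a block, another fold threshold, and leaving out each library.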

Additional observations from a re-analysis of the deposited data

How the results depend on the processing

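Obox3 kept its direction and its call under all 14 alternative fits, and none of Obox1, Obox2, Obox5 and Obox7 passed under any. The sign turned for Obox1 without WT replicate 3 (0.066) and for Obox2 with quantile normalization (0.117), without Bnc1tr/tr replicate 1 (0.097) and without WT replicate 3 (0.229), on the log2 scale. With each library left out in turn, Obox1 ranged from -0.28 (without WT replicate 1) to 0.066 and Obox2 from -0.19 (without WT replicate 1) to 0.229. With a minimum mean of 5 FPKM, 2046 genes were called, 1413 of them higher, with 4 homeobox genes and 5 transcripts of zygotic genome activation, since fewer genes were tested. With a log2 fold change over 1, 1677 genes were called, 1418 higher and 259 lower. With quantile normalization 1637 were higher and 1877 lower, and lower genes numbered 1794 with upper-quartile and 1535 with median-ratio scaling. The cause was not tested for these scalings. Leaving out 1 library gave 418 (without WT replicate 2) to 1041 (without WT replicate 3) lower genes, against 811 with all libraries.

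The replicate numbers were used as a block in one alternative. Same-numbered libraries did not deviate together in every pair (r = 0.28, -0.03 and 0.12 for replicates 1 to 3). Bnc1tr/tr replicates 1 and 3 correlated best with the WT library of their own number, and Bnc1tr/tr replicate 2 with WT replicate 3 (0.16). The study states that littermates were compared, but not which libraries share a litter. Whether the numbers mark pairs is therefore not settled. With the replicate block 3733 genes were called in place of 3358, and Obox3 kept its call (1.71, limma adjusted p = 0.011). With 3 libraries a group, exact tests could not pass 0.05, and without counts the depth is an estimate.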
